A study of Caenorhabditis elegans with 2 samples.

Results

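The genes described here are cct-1 to cct-8, which encode the subunits of the cytosolic chaperonin CCT of Caenorhabditis elegans. They were chosen by name, and all 8 were found among the 19973 annotated protein-coding genes. The question was where the chromatin protein HMG-11 lay around these genes. Regions were taken as belonging to a gene when their summit, the base of highest signal, lay between 2 kb upstream of its annotated start and its end.

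CCT, also called TRiC, is a chaperonin of stacked rings in which each ring is built from different but related subunits. It encloses newly made proteins and folds them with energy from ATP, and actin and tubulin are its best known clients. Dividing and growing cells depend on it, and in C. elegans cct-8 has also been studied for its part in life span. HMG-11 is a protein of the HMGA type, a family of small chromatin proteins whose AT-hooks fit into A/T-rich stretches of DNA.

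HMG-11 binding was mapped by chromatin immunoprecipitation followed by sequencing (ChIP-seq) with an antibody against GFP. All animals were TH184 hermaphrodites carrying unc-119(ed3) III and the integrated transgene ddIs101, which gives HMG-11 a C-terminal GFP-FLAG tag, and whole L3 larvae were taken 52 h after synchronisation as starved L1 larvae. There were 2 biological replicates of 1 group, so no condition was compared and no test was made. The promoter that drives the transgene and the state of the endogenous hmg-11 gene were not stated in the labels. Whole animals were used, so strong binding in few cells and weak binding in many cannot be told apart, and no untagged or input library was analysed here. The lists carry no expression values, so the labelled stage was not checked against markers.

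The authors' lists held 30000 regions each for replicate 1, replicate 2 and the pooled reads of both. The 4037 peaks that passed a threshold on the irreproducible discovery rate (IDR), which scores how far ranks agree between lists, were the 4037 strongest pooled regions, and the other 25963 are called other listed regions. Signal is the authors' own peak value, its scale not given in the sources used here. It served only for ranks and levels inside each list, with rank 1 the strongest. Read depth is unknown, and sites weaker than the 30000 were not seen.

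The lists, which hold background regions as well as peaks, had a region upstream of every CCT gene, and for 7 of the 8 it was an HMG-11 peak. In the promoter window, from 1000 bp upstream to 200 bp downstream of any transcript start, all 8 genes had a listed region, and those of cct-1, cct-2, cct-4, cct-5, cct-6, cct-7 and cct-8 were peaks. The gene without a peak was cct-3, for the gamma subunit. Among all protein-coding genes with a listed region in that window, 43.5% had a peak there, and of all annotated protein-coding genes 15.0% did. From 2 kb upstream to the gene end, the CCT count was again 7 of 8, and 46.2% of the protein-coding genes with a listed region there had a peak. These shares are a background and not a test.

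The DNA under the strongest of these peaks is shown first, because HMGA proteins are known for A/T-rich contacts. Each window reaches 50 bp to either side of the summit base and is read on the strand of the CCT gene, from the RefSeq sequence of build ce11 (WBcel235). Capitals mark runs of 6 or more A or T bases. They come from chrII:8185120-8185220 (plus strand), chrV:1871884-1871984 (plus strand) and chrIV:1094266-1094366 (minus strand).
cct-1: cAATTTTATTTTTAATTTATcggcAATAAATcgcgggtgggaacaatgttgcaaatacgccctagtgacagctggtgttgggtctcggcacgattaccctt
cct-7: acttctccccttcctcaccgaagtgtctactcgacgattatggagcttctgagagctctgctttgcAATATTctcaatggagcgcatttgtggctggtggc
cct-8: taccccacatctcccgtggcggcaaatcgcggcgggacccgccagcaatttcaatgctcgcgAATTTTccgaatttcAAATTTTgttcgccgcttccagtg
The cct-1 window holds a run of 19 A/T bases at its edge, whereas the longest run was 6 bases at cct-7 and 7 bases at cct-8.

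The CCT genes were spread over a wide range of binding strength. The strongest was cct-1, the alpha subunit gene, whose peak at chrII:8184942-8185397 had a pooled signal of 243.4 and rank 145. Its signal was 90.9 in replicate 1 (rank 274) and 152.9 in replicate 2 (rank 129). Of the 6861 protein-coding genes with a listed promoter region, 1.57% had a stronger one. Both replicates therefore placed cct-1 near the top of their lists.

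The theta and eta subunit genes followed. For cct-8 the peak at chrIV:1094088-1094543 had a pooled signal of 196.6 (rank 367), with 90.1 in replicate 1 (rank 286) and 111.3 in replicate 2 (rank 440). For cct-7 the peak at chrV:1871706-1872161 had a pooled signal of 188.1 (rank 435), with 78.5 in replicate 1 (rank 513) and 109.3 in replicate 2 (rank 475). The share of genes with a stronger promoter region was 4.05% for cct-8 and 4.90% for cct-7. The order of these 2 genes was the same in both replicates, but their ranks in replicate 2 were close together.

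The epsilon and zeta subunit genes lay lower in the lists and were alike in both replicates. For cct-5 the upstream peak at chrIII:4508324-4508779 had a pooled signal of 137.4 (rank 1121), with 59.7 in replicate 1 (rank 1200) and 81.6 in replicate 2 (rank 1170). For cct-6 the peak at chrIII:5855827-5856282 had a pooled signal of 89.8 (rank 2707), with 39.4 in replicate 1 (rank 2828) and 50.9 in replicate 2 (rank 2915). Both were therefore within the 4037 strongest regions of each replicate.

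In the pooled list the beta and delta subunit genes had the weakest peaks, and replicate 2 alone did not place them among its strongest regions. The order differed in replicate 1, where cct-2 stood above cct-6 (rank 2828). For cct-4 the peak at chrII:8283152-8283607 had a pooled signal of 75.4 (rank 3490), with 35.3 in replicate 1 (rank 3436) and 34.4 in replicate 2 (rank 5199). For cct-2 the peak at chrII:8927210-8927665 had a pooled signal of 72.5 (rank 3686), with 43.8 in replicate 1 (rank 2354) and 30.1 in replicate 2 (rank 6562). The cct-2 signal was 1.07 times and the cct-4 signal 1.11 times that of the weakest of all peaks, which was 67.91.

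The region of cct-3 was below the peak threshold in every list. It lay at chrII:2232463-2232918 with a pooled signal of 47.3 (rank 7228), 0.696 times that of the weakest peak, and had 28.9 in replicate 1 (rank 4945) and 19.1 in replicate 2 (rank 14469). A stronger promoter region was present at 57.7% of the genes with one listed. A weaker pooled region, 158 bp upstream of the cct-3 start, ranked 29313 and overlapped no region of either replicate.

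**Figure D1:**
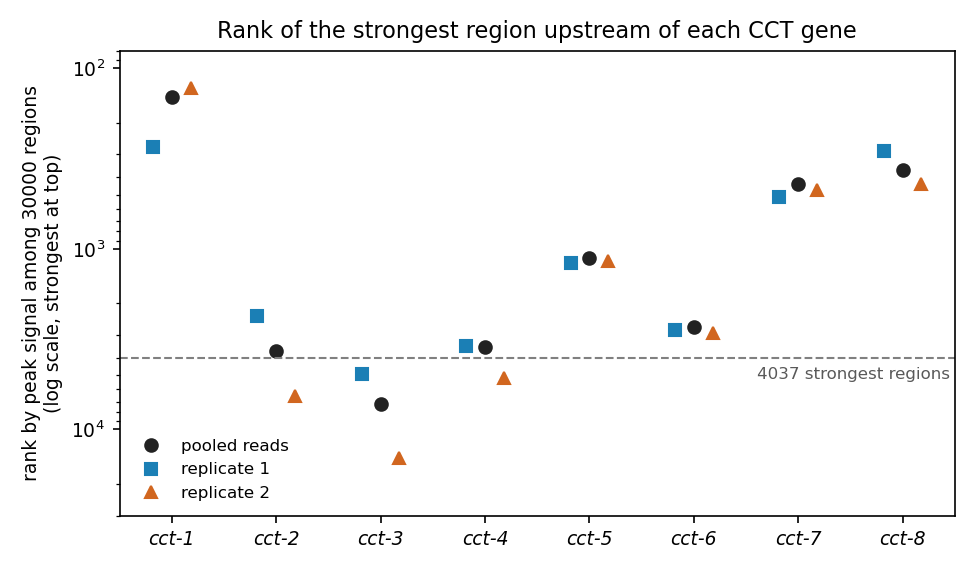
Rank of the strongest region upstream of each CCT gene (vertical log axis, strongest at the top) in the pooled list (circles), replicate 1 (squares) and replicate 2 (triangles), with a dashed line at rank 4037. Replicate 1 places 7 genes above the line and replicate 2 places 5, and cct-3 lies below it in all lists.

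In replicate 1, 7 of the 8 genes had a region among the 4037 strongest in the promoter window, and 41.5% of all protein-coding genes with a replicate 1 region there did. In replicate 2 the count was 5 of 8, against 41.9% over all such genes. The 5 genes with a peak that was strong in both replicates were cct-1, cct-5, cct-6, cct-7 and cct-8, out of the 7 with a peak, and 79.3% of all protein-coding genes with a promoter peak met the same rule. Ranks of the 8 genes in the replicates had a Spearman correlation of 0.93, a description over 8 genes that share the same libraries. The median rank of the CCT genes was 1914 in the pooled list, 1777 in replicate 1 and 2042.5 in replicate 2. Over all 6861 protein-coding genes with a promoter region the median pooled rank was 5241, and the better quartile 2043.

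Summits of the replicates lay close together. The gap between the replicate 1 and replicate 2 summits of a CCT gene was 3 bp at the least, for cct-2, and 78 bp at the most, for cct-6, with a median of 28.5 bp over the 8 genes. Over the 4025 peaks matched in both replicates the median gap was 31 bp.

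In the pooled list the CCT peaks lay in a narrow band upstream of the genes. The pooled summits were 273 bp upstream of the start for cct-1, 287 bp for cct-4, 303 bp for cct-2, 312 bp for cct-7, 368 bp for cct-6, 396 bp for cct-8 and 438 bp for cct-5. Their median position was −312, whereas it was −230 over all 2987 protein-coding genes with a promoter peak, with quartiles of −424.5 and −123. Of those 2987 genes, 19.0% had a summit within the band from −438 to −273 that the 7 CCT genes span. The band was drawn from these 7 summits, so all 7 lie in it by construction, and the share is a description only. Some replicate summits lay outside the band, at −229 (replicate 1) and −241 (replicate 2) for cct-1 and at −255 (replicate 1) for cct-4. The strongest region of cct-3 lay outside the band, 849 bp upstream. Many C. elegans transcripts are trimmed by trans-splicing, so an annotated start can lie downstream of the base where transcription begins.

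**Figure D2:**
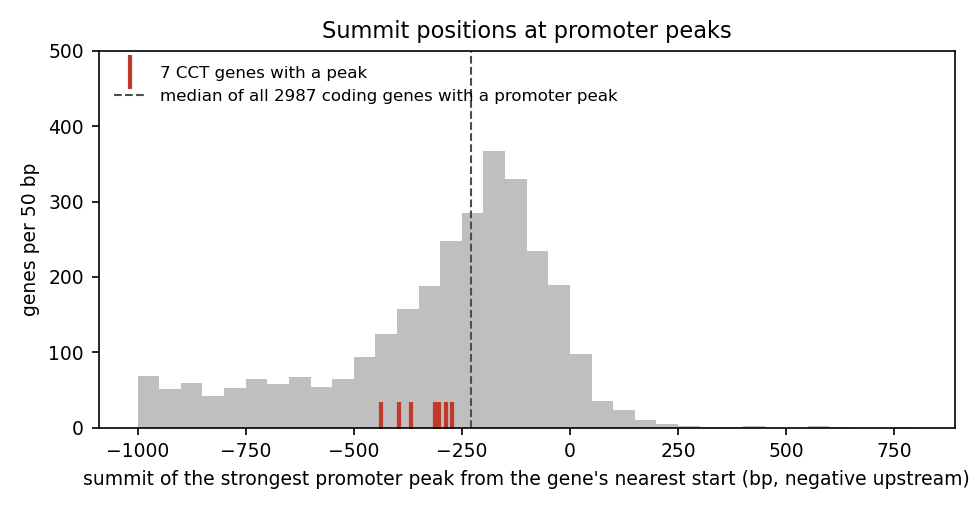
Histogram of the distance in bp from a gene's nearest annotated start to the summit of its strongest promoter peak, as genes per 50 bp over 2987 protein-coding genes, with red ticks for the 7 CCT genes with a peak and a dashed line at the overall median. The ticks lie between −438 and −273, upstream of the overall median of −230.

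Every CCT gene faces a coding gene on the other strand, and 6 of the 7 peaks had their summit between the paired starts. Each of the 7 CCT peaks was also in the promoter window of that neighbour. Over all protein-coding genes with a promoter peak, 46.3% shared it with a coding gene on the other strand, 49.0% with any other coding gene and 60.5% with a gene of any class. The distance between the paired starts of the 7 genes was 331 bp at cct-6 to 1190 bp at cct-2. For 6 of the 7 the summit was nearer to the neighbour's start than to the CCT start, and 25.7% of all protein-coding genes with a promoter peak had a summit nearer to another coding gene's start. The peaks can therefore not be assigned to the CCT gene alone.

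The neighbours were of varied function. The cct-1 summit lay 147 bp upstream of mig-5, a Dishevelled gene of Wnt signalling, and the cct-4 summit 172 bp upstream of nst-1, the nucleostemin gene. The cct-7 summit lay 127 bp upstream of T10B5.4 and 46 bp upstream of T10B5.13, an RNA gene on the strand of cct-7. The summits of cct-8 and cct-5 lay 225 bp upstream of Y55F3AR.2 and 303 bp upstream of F25F2.1. The cct-6 summit was 37 bp inside alh-9, an aldehyde dehydrogenase gene, in its 5′ UTR, so 6 of the 7 peaks were upstream of both starts. The cct-2 summit was the exception in distance, 303 bp from cct-2 and 887 bp from B0457.2. The cct-3 region lay 221 bp upstream of F54A3.6. Giving each summit only to its nearest coding start left 7 CCT genes with a listed region and 2 with a peak, cct-2 and cct-5. The upstream summit of cct-5 went to F25F2.1, and its peaks under that rule were those within the gene, described below. Of the protein-coding genes nearest to a listed summit, 38.2% had a peak under that rule.

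**Figure D3:**
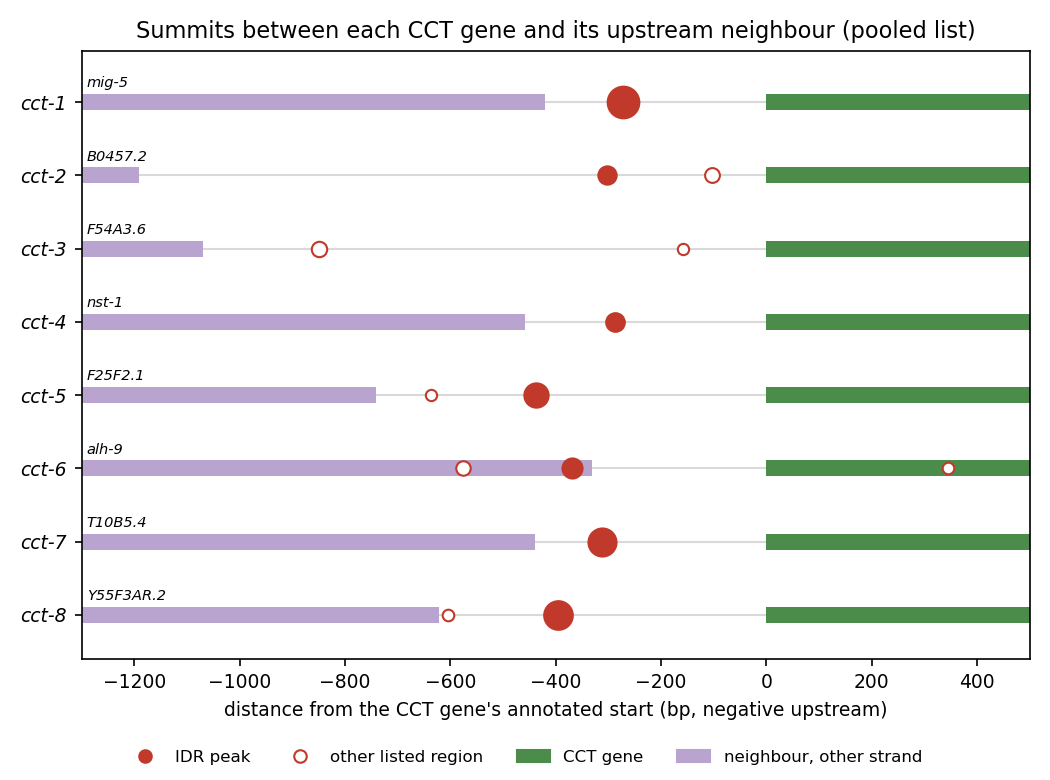
Map of the space upstream of each CCT gene (green) and its neighbour on the other strand (purple), drawn in bp from the annotated CCT start, with pooled summits as filled circles for peaks and open circles for other listed regions, larger circles for higher signal. The main summit lies between the paired starts at 6 of the 7 genes with a peak, and just inside alh-9 at cct-6.

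The nearest coding genes on the downstream side were T05C12.8 for cct-1, mrpl-50 for cct-2, F54A3.2 for cct-3, nlp-55 for cct-4, atf-7 for cct-5, ddx-23 for cct-6, zig-11 for cct-7 and csn-4 for cct-8. The gap was 25 bp between cct-2 and mrpl-50, a mitochondrial ribosomal protein gene, and 142 bp between cct-5 and atf-7, a bZIP transcription factor gene. In the 3′ UTRs of CCT genes the pooled list held 2 regions, neither of them a peak. These were at cct-5 (rank 12006), in both replicates, and at cct-6 (rank 13254), in replicate 2 but not in replicate 1. The first summit was also 330 bp upstream of the atf-7 start and the second 312 bp upstream of the ddx-23 start, so within the promoter windows of those genes.

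In all, 34 pooled regions had a summit from 2 kb upstream to the end of a CCT gene, 15 upstream and 19 within the gene. Of these, 9 were peaks and 25 were other listed regions, which ranked from 5373 to 29996. Replicate 1 listed 31 regions and replicate 2 listed 35, with 11 and 7 among the 4037 strongest of their list. By at least 1 bp, regions of both replicates overlapped 24 of the 34 pooled regions. No share over all pooled regions stands beside this count, and an overlap can come from a stronger region next to the pooled one. Inside the genes, 13 pooled summits were in introns, 4 in coding exons and 2 in 3′ UTRs. By gene, the pooled list held 13 regions for cct-5, 7 for cct-8, 4 for cct-6, 3 each for cct-1 and cct-3, 2 for cct-2 and 1 each for cct-4 and cct-7. Listed regions can overlap each other and so share reads.

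Binding within the gene at peak strength was found at cct-5 and at no other CCT gene. Of its 3 peaks, 2 lay in intron 2, which is 6134 bp of the 8927 bp gene. The peak 2114 bp downstream of the start had a pooled signal of 102.5 (rank 2144), with rank 1452 in replicate 1 and 2805 in replicate 2. The peak 3612 bp downstream had a pooled signal of 96.4 (rank 2381), with rank 1232 in replicate 1 and 3279 in replicate 2. Both were among the 4037 strongest regions of each replicate, and both were weaker than the upstream peak in the pooled list.

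The intron of cct-5 held 7 pooled regions, 6 in replicate 1 and 8 in replicate 2, and 2 of those in the pooled list, 4 in replicate 1 and 2 in replicate 2 were among the 4037 strongest of their list. Of the 4069 protein-coding genes with a peak from 2 kb upstream to the gene end, 3.24% had 3 or more, as cct-5 did. Among the 1569 protein-coding genes of 6 to 11 kb, the median was 2 pooled regions within the gene, 1.47% had at least the 11 of cct-5 and 3.25% had at least its 2 peaks. The other long CCT genes stood lower, with 1 region in cct-3 (10000 bp) and 3 in cct-8 (6813 bp), none of them a peak.

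**Figure D4:**
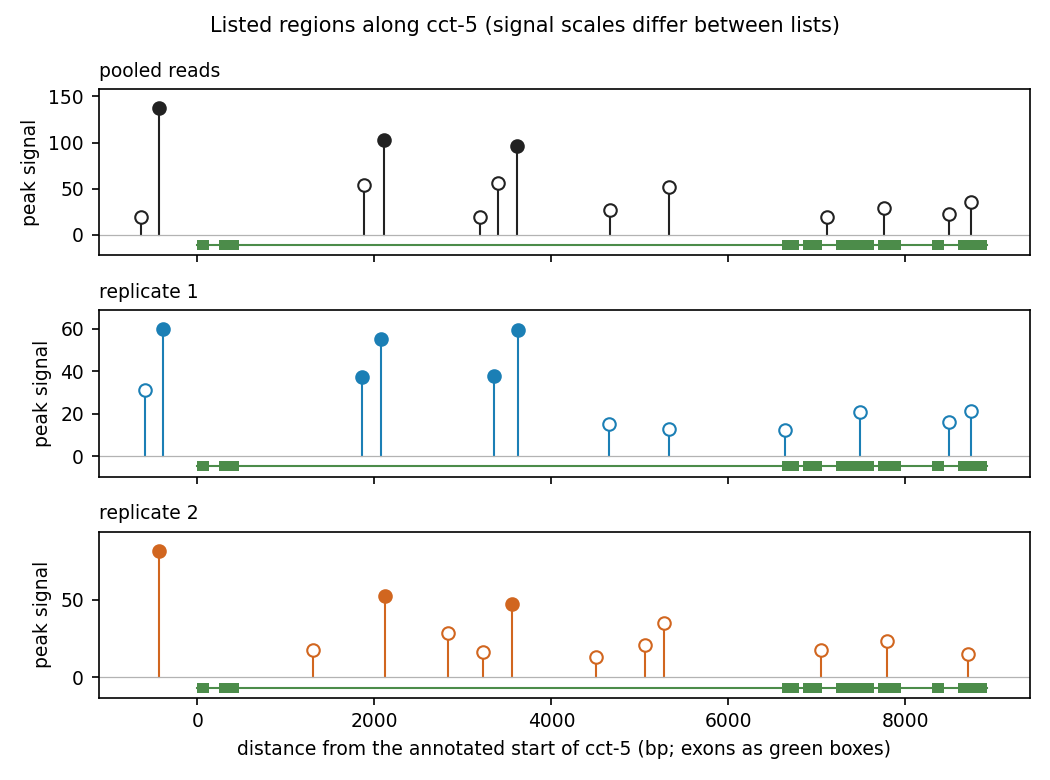
Authors' peak signal of every listed region along cct-5 against distance in bp from its annotated start, for the pooled reads, replicate 1 and replicate 2, with filled heads for IDR peaks (pooled) or regions among the 4037 strongest (replicates) and green boxes for exons. Filled heads stand upstream and at 2 places of intron 2 in all lists, and the signal scales differ between lists.

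The A+T content at most CCT summits lay between the medians of all peaks and of other listed regions. In the 101 bp windows, A+T content was 61.4% at cct-6, 59.4% at cct-2, 58.4% at cct-5, 57.4% at cct-4, 56.4% at cct-1, 49.5% at cct-7 and 45.5% at cct-8. The median of these 7 peaks was 57.4%, whereas it was 52.5% over all 4037 peaks (quartiles 47.5% and 58.4%) and 63.4% over the other listed regions (quartiles 57.4% and 70.3%). The genome as a whole is 64.6% A+T. Of the 7 CCT peaks, 5 were above the median of all peaks and all 7 were below the median of other listed regions. The 2 below the median of peaks were cct-7 and cct-8, which are also among the 3 strongest. The region of cct-3 had 57.4%.

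With the summits of replicate 1 the median A+T was 56.4% at the 7 CCT peaks and 53.5% at the 4026 peaks matched there. With the summits of replicate 2 it was 52.5% at the 7 CCT peaks and also 52.5% at the 4036 matched peaks. In the 25 bp that begin at the summit, CCT peaks averaged 51.4% (24% to 76% among the 7), all peaks 51.7% and other listed regions 63.5%.

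**Figure D5:**
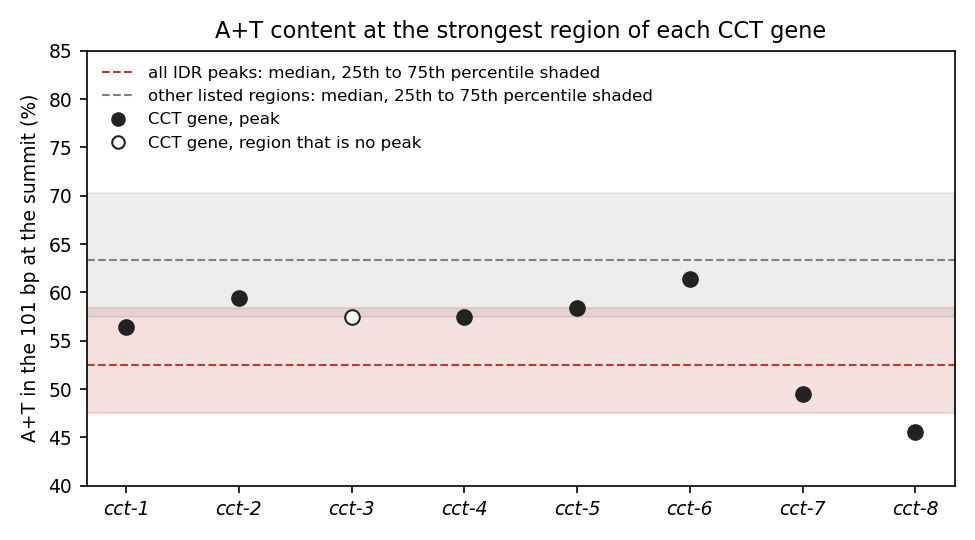
A+T content in percent of the 101 bp at the summit of each CCT gene's strongest region (filled for a peak, open for cct-3), with dashed medians and shaded quartile ranges of all IDR peaks (red) and other listed regions (grey). The vertical axis begins at 40%, and cct-7 and cct-8 lie below the median of all peaks.

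The word AATT, a sequence that HMGA AT-hooks are known to bind, was searched in the same windows on both strands. It was present at 6 of the 7 CCT peaks, at 44.2% of all peaks and at 73.5% of other listed regions, and cct-7 was the CCT peak without it. A run of 6 or more A/T bases, which can contain AATT, was present at all 7 CCT peaks, at 66.3% of all peaks and at 89.2% of other listed regions. A match is not a measured contact.

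CCT subunit genes are known targets of a heat shock factor in human cells, and the inverted repeats of its element were searched in the same windows, on both strands. Either TTCNNGAA or GAANNTTC was present at 4 of the 7 CCT peaks, at 5.92% of all peaks and at 12.7% of other listed regions. TTCNNGAA was present at cct-2, cct-5 and cct-6, at 3.27% of all peaks and at 6.62% of other listed regions. GAANNTTC was present at cct-8, at 3.22% of all peaks and at 7.24% of other listed regions. The matches are shown with 10 bases on either side, on the strand of the CCT gene, with the matched word in capitals, and that of cct-6 lies in the UTR of alh-9 and is not shown. They are at chrII:8927465-8927492 (plus strand), chrIII:4508516-4508543 (minus strand) and chrIV:1094288-1094315 (minus strand).
cct-2: tattttgagtTTCGAGAAggattttccc
cct-5: tgtgacatttTTCTAGAAgattttcaat
cct-8: caatgctcgcGAATTTTCcgaatttcaa
Their centres lay 41 bp downstream of the summit at cct-2, 22 bp downstream at cct-5 and 14 bp downstream at cct-8, in the direction of the CCT gene. No binding of the heat shock factor was measured.

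The CCT genes of chromosome II shared a word with each other, seen when their upstream sequences were laid side by side and so chosen after the sequences were known. TCTCGNCAC was present within 1 kb upstream of cct-1, cct-2, cct-3 and cct-4 and not of the other 4 genes. The same window held it, on either strand, at 4.82% of all protein-coding genes, at 7.73% of those with a promoter peak, at 6.56% of those with a listed promoter region but no peak and at 3.65% of those with no listed promoter region. The word and 10 bases on either side are shown, with the word in capitals, to let the flanks be compared. They are at chrII:8185192-8185220 (plus strand), chrII:8927237-8927265 (minus strand), chrII:2232666-2232694 (plus strand) and chrII:8283410-8283438 (plus strand).
cct-1: tggtgttgggTCTCGGCACgattaccctt
cct-2: tttgagtgggTCTCGCCACgatctcagtc
cct-3: acactgcgggTCTCGCCACgaaaacattc
cct-4: ctcaagtgggTCTCGCCACgaaaccagta
The letters shared by all 4 extend to GGGTCTCGNCACGA, which was within 1 kb upstream of 1.08% of protein-coding genes and of 2.14% of those with a promoter peak. The word lay 36 bp from the summit at cct-1, 44 bp at cct-4 and 11 bp at the cct-3 region, and 187 bp from the summit at cct-2, on the other strand. It was thus in the summit window at 2 of the 7 CCT peaks, and it was in that of 1.39% of all peaks and 0.655% of other listed regions. These 4 genes are not a cluster of neighbours, since the starts of cct-1 and cct-4 are 98.2 kb apart, those of cct-4 and cct-2 644 kb, and cct-3 lies 5952 kb from cct-1.

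Other genes of protein folding were set beside the CCT genes with the same promoter window. Of 40 symbols 38 matched the annotation, 30 had a listed region and 22 had a peak. Over all protein-coding genes with a listed region in that window, 43.5% had a peak. Prefoldin, which hands unfolded actin and tubulin to CCT, had a peak at 4 of its 6 genes, the strongest at pfd-1 (signal 147, rank 953) and pfd-3 (signal 138, rank 1112). The CCT helpers pdl-1, a phosducin-like gene (signal 114, rank 1765), and txdc-9, a thioredoxin-like gene (signal 132, rank 1264) both had one. All 8 of these prefoldin and helper genes, like the 8 CCT genes, had a listed region.

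The genes of the best known CCT clients were also read. Of 16 tubulin genes 9 had a listed region and 6 a peak, the strongest at tbb-1 (signal 149, rank 925) and tba-2 (signal 138, rank 1116). Of 5 actin genes 4 had a listed region and 3 a peak, the strongest at act-4 (signal 195, rank 377) and act-2 (signal 92.2, rank 2587). From 2 kb upstream to the gene end, 10 tubulin genes had a region and 8 a peak, and 4 actin genes had a region and 4 a peak. In that window 46.2% of all protein-coding genes with a listed region had a peak. Actin and tubulin genes are near-identical in parts, and the treatment of reads that match several places was not stated in the labels.

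The mitochondrial chaperonin gene hsp-60 had a peak of signal 225 (rank 213). Of 7 matched genes of the cytosolic HSP70 and HSP90 systems, all had a listed region and 6 a peak, the strongest at hsp-110 (signal 230, rank 191) and dnj-13 (signal 224, rank 222). The 2 symbols without a match were hsp-10 and daf-21, an older name of the HSP90 gene. That gene is annotated as hsp-90, stands outside these counts, and was looked up after the other values were seen: it had a promoter peak (signal 166, rank 663). The promoter region of hsf-1, the heat shock factor gene, was no peak (signal 30.7, rank 15475). In the wider window, from 2 kb upstream to the gene end, hsf-1 did have a peak. In the pooled list, no matched gene of these folding lists had a stronger promoter region than cct-1. In replicate 1, however, dnj-13 (rank 163), act-4 (rank 166) and hsp-60 (rank 192) stood above cct-1 (rank 274). Several peaks of the folding lists, too, lie in the windows of other genes.

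The genes most alike in strength to the middle of the CCT genes were taken from 5698 other protein-coding genes by the distance between log2 ranks in the 2 replicates. The median log2 rank of the CCT genes corresponds to rank 1681 in replicate 1 and rank 1847 in replicate 2. The nearest were Y38A10A.7 (rank 1670 in replicate 1 and 1912 in replicate 2, distance 0.05) and cpsf-2 (1745 and 1862, distance 0.06), a gene for an mRNA cleavage and polyadenylation factor. Both have a peak, with pooled signals of 116 and 118. The gene smut-1 had the same rank as Y38A10A.7 in both replicates, so these were the same replicate regions and not separate values. The strongest pooled region of smut-1, of rank 6488, is no peak.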

How the data were processed

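HMG-11 ChIP-seq of 2 biological replicates was analysed from the ce11 region lists. Per the text deposited with the lists, they were made from alignments of the replicates and a control. The aligner and caller were left out of the sources used here, as were their versions. Each deposited region carries the authors' signal value, of unstated scale, and a −log10 q-value that the authors' lists cap, shared at its top by 3637 pooled regions, so regions were ranked by signal. Each of the 4037 IDR peaks had the coordinates of a pooled region. Lists on ce10 were not used and nothing was converted.

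Genes came from Ensembl release 115 (WBcel235), and RefSeq gave the same coordinates for all 8 CCT genes. A region was matched to a replicate by at least 1 bp of overlap, and the strongest match was taken. Positions count from the gene start. Regions were assigned in Python 3.11.15 with pandas 2.3.3, numpy 2.4.6 and scipy 1.17.1, figures were drawn with matplotlib 3.10.9, and the assignment was tested on simulated regions. The named genes were the CCT genes, those sharing a peak, the nearest coding genes, the 2 strongest of each folding list and the 3 genes most alike in rank. The members and lists were chosen with earlier results of these data known. With 1 group and no replicate test, counts stand beside the same counts over all protein-coding genes. The number of replicates and the unknown read depth limit the precision. The alternatives were other windows, thresholds, overlaps and single replicates.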

Additional observations from a re-analysis of the deposited data

How the results depend on the processing

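Of 26 alternatives to the summary values, 18 left the value within the limits set for it, 8 moved it and 0 were labelled reversed. One labelled as moved gave each summit only to its nearest coding start. Under it the share of CCT genes with a peak was below that over all coding genes, whereas the main share was above it. The count of CCT genes with a peak was 7. It was 2 of 8 when each summit went only to its nearest coding start, where 7 of the 8 had a listed region. Over all coding genes with a listed region under that rule, the share was 38.2%. The CCT count was 1 of 8 within gene bodies alone (16.2%, so near the background), where cct-2, cct-4 and cct-7 had no pooled region. With the stronger part of the IDR peaks the count was 4 of 8 (27.1%), which also gave 4 of 8 in the promoter window (24.8%). Leaving out a replicate gave 5 without replicate 1 and 7 without replicate 2, in both windows. The genes lost without replicate 1 were cct-2 and cct-4. The median rank ranged from 1777 to 2042.5 and the median summit position of all 8 genes from −359 to −328.5, with −340 from the pooled list. Without replicate 1, the rank of cct-3 was 14469 and that of cct-2 was 6562. Without replicate 2, the rank of cct-1 was 274. Peaks strong in both replicates were 5, and 3 when summits had to lie within 50 bp. No share over all protein-coding genes stands beside the count under the 50 bp rule. The median A+T content at the CCT peaks was 57.4% in 101 bp, 52.9% with 25 bp on either side and 60.7% with 100 bp. Over all peaks it was 52.5%, 51.0% and 55.7% in the same windows. It ranged from 52.5% to 56.4% when a replicate was left out. The cause of these changes was not tested, except that narrower windows and fewer peaks leave fewer genes by construction. Numbers of reads are unknown, so depth sets no interval here. No paired analysis was possible because there was 1 group and no test.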
